A study of Mus musculus with 18 samples.

Results

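The genes described here are the transcription factor NRF2, its regulators and the enzymes of glutathione, thioredoxin and antioxidant defence, measured by bulk RNA-seq of poly(A) RNA from mouse liver. A set of 38 gene symbols was given by name, and 37 of them were found among the 15052 genes with a value, *Slc7a11* being the one not found. The livers came from 18 female mice (by the labels) aged 10 to 12 weeks, either wild type (WT) or *Apoe* knockout (*Apoe* KO), and ethanol was given chronically with a final binge. *Apoe* encodes apolipoprotein E, a lipid carrier that the liver and macrophages secrete. All mice first drank liquid diet for 5 days. The EtOH-fed mice (5 WT, 4 *Apoe* KO) then received 5% (v/v) ethanol in the diet for 10 days and, on day 11, a gavage of 5 g/kg ethanol, and the pair-fed mice (4 WT, 5 *Apoe* KO) an isocaloric diet and a gavage of 9 g/kg dextrin-maltose. Livers were taken 9 h after the gavage. The KO is carried by the whole animal, so that the liver values below do not separate hepatocytes from other cells, and in whole tissue fewer cells of a type and less RNA per cell cannot be told apart.

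NRF2, encoded by *Nfe2l2*, is held in the cytoplasm and passed to degradation by KEAP1. Electrophiles and oxidants modify KEAP1, NRF2 then accumulates, pairs with a small MAF protein in the nucleus and binds antioxidant response elements of genes for glutathione synthesis, thiol reduction, NADPH supply and conjugation. In the liver, ethanol oxidation by CYP2E1 is a known source of reactive oxygen species, and glutathione is the main soluble thiol that removes peroxides.

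Promoter windows of 300 bases, from 250 bases before to 50 after a gene's start, were taken from RefSeq (GRCm38.p6) and were found for 34 of the 38 genes, as 43 windows. They were searched on both strands for the antioxidant response element cores TGACNNNGC and TGAGNNNGC. The second form was added after the windows had been seen. At least 1 of the forms was in 16 of the 43 member windows (37.2%) and in 27.8% of all 32851 windows of this length. The windows of *Srxn1*, *Ugdh* and *G6pdx* are shown because these genes differed between the EtOH-fed genotypes (below) and held a core, with each core in capitals, 5′ to 3′ on the strand of the gene.
*Srxn1*, chr2:152105274-152105573, plus strand: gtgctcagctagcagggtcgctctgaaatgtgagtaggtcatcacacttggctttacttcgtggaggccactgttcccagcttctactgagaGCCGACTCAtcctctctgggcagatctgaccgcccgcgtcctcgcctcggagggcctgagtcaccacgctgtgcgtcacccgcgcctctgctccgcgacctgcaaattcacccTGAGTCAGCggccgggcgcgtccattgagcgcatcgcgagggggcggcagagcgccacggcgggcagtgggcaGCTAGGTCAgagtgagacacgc
*Ugdh*, chr5:65435793-65436092, minus strand: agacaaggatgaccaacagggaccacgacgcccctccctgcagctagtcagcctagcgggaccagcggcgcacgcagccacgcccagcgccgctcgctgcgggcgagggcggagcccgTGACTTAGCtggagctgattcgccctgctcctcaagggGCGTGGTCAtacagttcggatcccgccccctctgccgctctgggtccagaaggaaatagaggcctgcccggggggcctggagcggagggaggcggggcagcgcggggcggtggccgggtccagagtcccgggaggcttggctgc
*G6pdx*, chrX:74428831-74429130, minus strand: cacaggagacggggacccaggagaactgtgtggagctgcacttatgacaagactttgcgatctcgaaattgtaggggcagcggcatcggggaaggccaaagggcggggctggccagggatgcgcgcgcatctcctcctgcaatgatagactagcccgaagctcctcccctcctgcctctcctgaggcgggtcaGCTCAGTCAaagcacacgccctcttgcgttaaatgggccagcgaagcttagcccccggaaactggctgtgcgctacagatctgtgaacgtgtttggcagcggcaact

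The *Srxn1* window held 3 cores, which begin at -158, -45 and 28 (start site at 0). Such a number, 3 or more of either form, was found in 0.630% of all windows. The *Srxn1* cores at -158 and -45 were of the form TGAGNNNGC, which was added after the windows had been seen. The core at 28 was of the form TGACNNNGC, which 12.4% of all windows held. The *Ugdh* window held 2, beginning at -132 and -94, as 4.68% of all windows did with 2 or more, and the *G6pdx* window held 1, at -57. The windows of *Sqstm1*, *Ephx1*, *Gss*, *Nqo1* and *Keap1* held neither form, which says only that these letters are not in those bases. No window was matched for *Hmox1*, *Gclc*, *Gsr* and *Prdx6*. Of the members that differed by diet in WT or *Apoe* KO livers (below), 8 of the 15 with a window held a core, and among the other measured members 7 of 18. The 2 metallothionein genes are shown for a different motif, the metal response element core in its forms TGCACNC and TGCGCNC (capitals), since metallothioneins are known targets of the zinc sensor MTF-1.
*Mt1*, chr8:94178839-94179138, plus strand: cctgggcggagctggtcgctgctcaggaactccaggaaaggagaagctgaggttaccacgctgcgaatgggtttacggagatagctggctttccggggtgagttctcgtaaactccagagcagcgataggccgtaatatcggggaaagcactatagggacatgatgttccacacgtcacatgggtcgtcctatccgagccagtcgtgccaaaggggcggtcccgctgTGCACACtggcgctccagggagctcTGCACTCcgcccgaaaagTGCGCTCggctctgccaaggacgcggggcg
*Mt2*, chr8:94172368-94172667, plus strand: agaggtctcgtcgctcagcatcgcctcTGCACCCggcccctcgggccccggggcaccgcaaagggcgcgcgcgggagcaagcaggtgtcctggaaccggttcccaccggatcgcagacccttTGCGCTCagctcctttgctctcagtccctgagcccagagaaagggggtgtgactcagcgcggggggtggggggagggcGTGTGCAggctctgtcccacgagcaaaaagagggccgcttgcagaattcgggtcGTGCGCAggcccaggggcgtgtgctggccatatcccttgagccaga

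The *Mt1* window held 3 metal response cores and the *Mt2* window 4, a number reached by 0.518% of all windows. At least 1 was present in 25.7% of all windows and in 20.9% of the member windows. The *Mt2* window also held 1 antioxidant core, at -79. In the 5 windows shown, no metal response core overlapped an antioxidant core. A match is a description of the letters and was not tested as a binding site.

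Values are scaled read counts, that is, reads per gene which the authors had scaled to a nearly common total per mouse (32267493 to 32292618). The reads behind them, estimated from the spacing of low values in 16 of 18 mice, ran from 5.60 to 52.2 M (mega), with group medians of 14.9 M in pair-fed WT, 23.9 M in pair-fed *Apoe* KO, 39.5 M in EtOH-fed WT (3 of 5 mice) and 11.0 M in *Apoe* KO mice given EtOH. *Apoe* itself averaged 717118 ± 59233 (SD) in pair-fed WT and 709804 ± 86543 in EtOH-fed WT livers, against 38291 ± 40868 and 45038 ± 22670 in the corresponding *Apoe* KO livers. EtOH-fed *Apoe* KO mouse 1 went against its label as female, with 1077 for the Y-linked *Ddx3y* and 826 for *Xist*, where the other 17 mice had 2 to 118 and 15227 to 30379. Calls that changed without this mouse are named where they occur. The lowest value of any member in any mouse was 22. Values are not reads, and 1 read stood for an estimated 0.618 to 5.76 units in the 16 mice. Per kilobase of exon, *Gpx1* (35603), *Mgst1* (35098) and *Mt1* (19622) had the highest levels as means over the groups, and *Maff* (107) and *G6pdx* (57.1) the lowest.

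Groups were compared on log2(value + 1) with limma, two-sided, with Benjamini-Hochberg adjustment of p over the whole table of 15052 genes. A gene is said to have changed at an adjusted p under 0.05. Fold changes are given on the log2(value + 1) scale with the standard error (SE).

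The effect of ethanol was asked first in WT livers. EtOH feeding raised 8 members and lowered 1, so that 9 of 37 (24.3%) changed, where 12.7% of all genes did. *Hmox1*, *Srxn1*, *Sqstm1* and *Ephx1* rose by more than 1 on the log2 scale, *Gclc*, *Ugdh*, *Gss* and *Txnrd1* by less, and *G6pdx* fell. The median log2 fold change was 0.15 over the members and -0.01 over all genes. In 13 members the 2 groups did not overlap, 9 of them higher with EtOH, and 14.4% of all genes had groups without overlap.

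In *Apoe* KO livers, EtOH feeding raised 14 members and lowered 4. These 18 of 37 (48.6%) stood against 23.2% of all genes (2446 raised and 1042 lowered). The 2 groups did not overlap in 16 members (20.0% of all genes). *Hmox1*, *Srxn1*, *Sqstm1* and *Ugdh* rose most, and *Gpx3*, *Nqo1*, *Mt1*, *Ephx1*, *Pgd*, *G6pdx*, *Gss*, *Txnrd1*, *Gsr* and *Gpx4* also rose. *Prdx6*, *Mafg*, *Maff* and *Gclm* fell. The median log2 fold change was 0.21 over the members and 0.13 over all genes. Median-of-ratios size factors moved the median of all genes from 0.13 to 0.00, and 11 members were then higher and 6 lower. Of the 9 members that changed in WT livers, 8 also changed in *Apoe* KO livers (88.9% of the WT list and 44.4% of the *Apoe* KO list), 7 in the same direction and *G6pdx* in the opposite one.

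**Figure D1:**
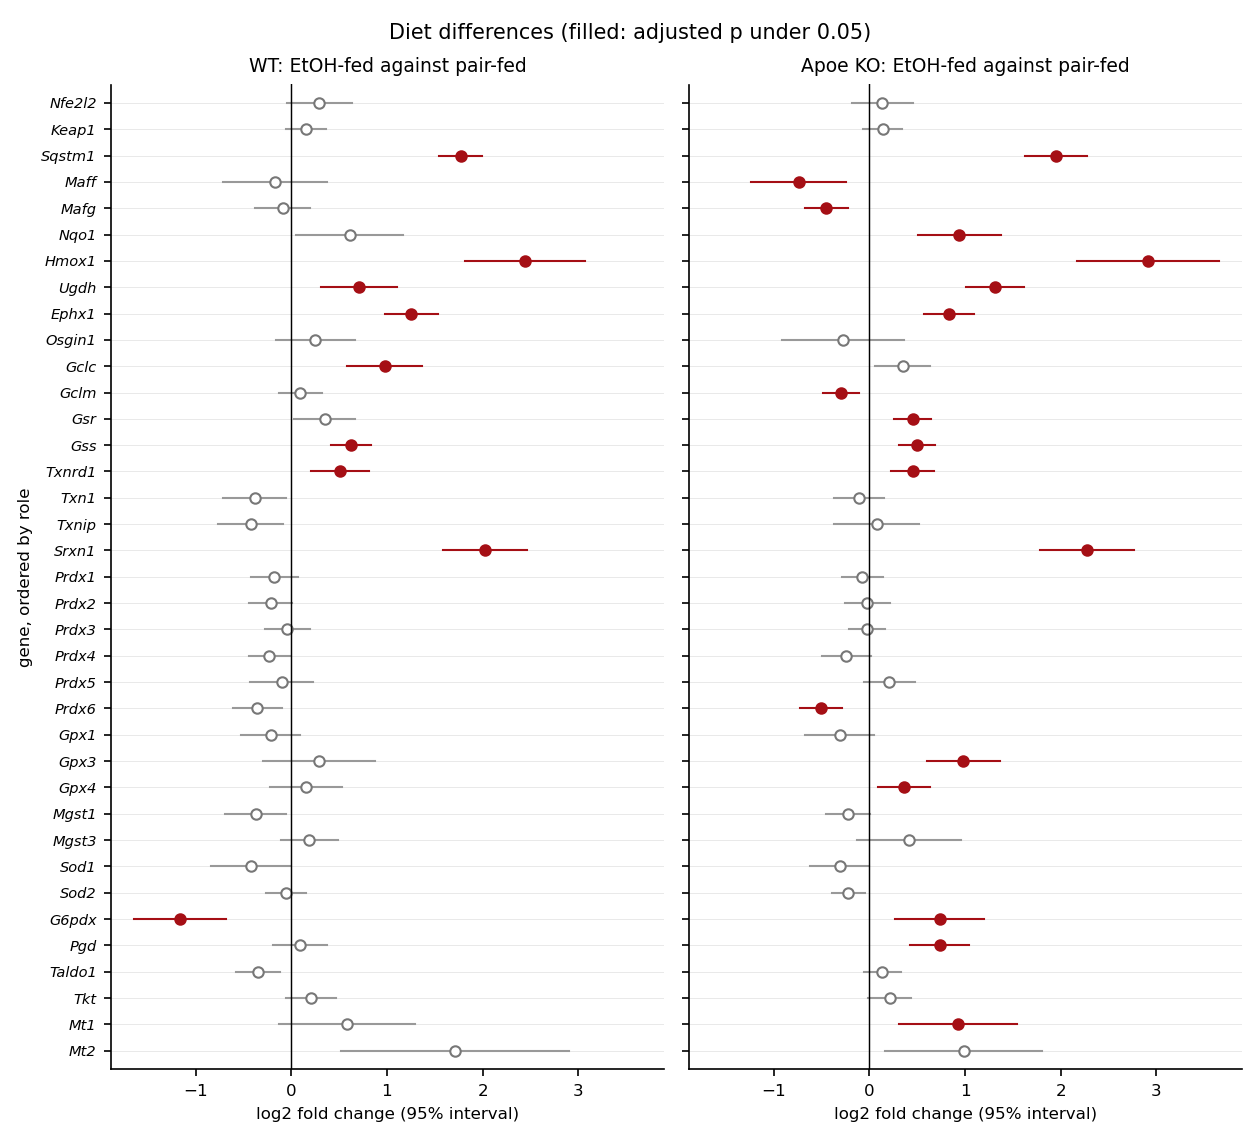
Log2 fold change with EtOH in WT (left) and *Apoe* KO livers (right) for 37 genes, with the 95% interval as a line, and filled symbols at an adjusted p under 0.05. *Hmox1*, *Srxn1* and *Sqstm1* lie farthest to the right in both panels, and *G6pdx* is to the left of 0 in WT and to the right in *Apoe* KO livers.

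The markers of other cell types also differed by diet. Of 5 sinusoidal endothelial markers, 4 were higher with EtOH in each genotype, with sums of 4232 to 4791 in pair-fed WT and 5679 to 7642 in EtOH-fed WT livers, and of 3253 to 4427 and 5464 to 9125 in *Apoe* KO livers. In *Apoe* KO livers 5 of 7 stellate cell markers, 2 of 7 macrophage markers, 2 of 5 Kupffer cell markers and 2 of 3 erythroid markers were higher with EtOH. Of all genes, 23.2% changed with EtOH in these livers, so that the macrophage share (28.6%) was near that of all genes. In WT livers, where 12.7% of all genes changed, 2 of 5 Kupffer cell markers were lower (*Clec4f* and *Cd5l*). The hepatocyte marker *Cps1* was higher in both genotypes (1.12 and 0.82), and *Cyp2e1* was lower in *Apoe* KO livers (-1.07). *Krt19*, of 4 cholangiocyte markers, was lower with EtOH in WT (-1.86) and higher in *Apoe* KO livers (1.32). Their part in the diet differences of the members was not tested.

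The genotype comparison was made within each diet. In pair-fed livers 1 of 37 members changed (2.70%, against 1.73% of all genes), with *Gclc* higher in *Apoe* KO mice, while 16 members (43.2%) and 19.9% of all genes had an unadjusted p under 0.05. The 2 genotypes did not overlap in 4 members (7.03% of all genes), namely *Gclc* and *Ephx1*, which were higher in *Apoe* KO livers, and *G6pdx* and *Sod1*, which were lower. In EtOH-fed livers, 5 members (13.5%) were higher in *Apoe* KO mice, where 4.69% of all genes changed (639 higher and 67 lower). They were *Hmox1* (2.81-fold), *G6pdx* (2.08-fold), *Ugdh* (2.01-fold), *Srxn1* (1.84-fold) and *Sqstm1* (1.66-fold). The genotypes did not overlap in 5 members, all higher in *Apoe* KO mice (*Hmox1*, *G6pdx*, *Ugdh*, *Sqstm1* and *Txnrd1*), against 8.13% of all genes. The median log2 fold change was 0.09 over the members and 0.11 over all genes, and size factors moved them to -0.03 and -0.02. The count of 5 became 2 without EtOH-fed WT mouse 1 and 3 without EtOH-fed *Apoe* KO mouse 2 or 5. Without mouse 1 of that group it stayed 5, while the diet count in *Apoe* KO livers became 16 (*Gclm*, *Mt1* and *Gpx4* no longer passed and *Gclc* did). The interaction, which tests whether the diet difference differs between genotypes, was called for 1 member, *G6pdx* (2.84% of all genes were called, and 7 members, or 18.9%, had an unadjusted p under 0.05, as did 16.3% of all genes). The 4 pairwise comparisons share groups, so that a high or low group enters 2 of them.

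**Figure D2:**
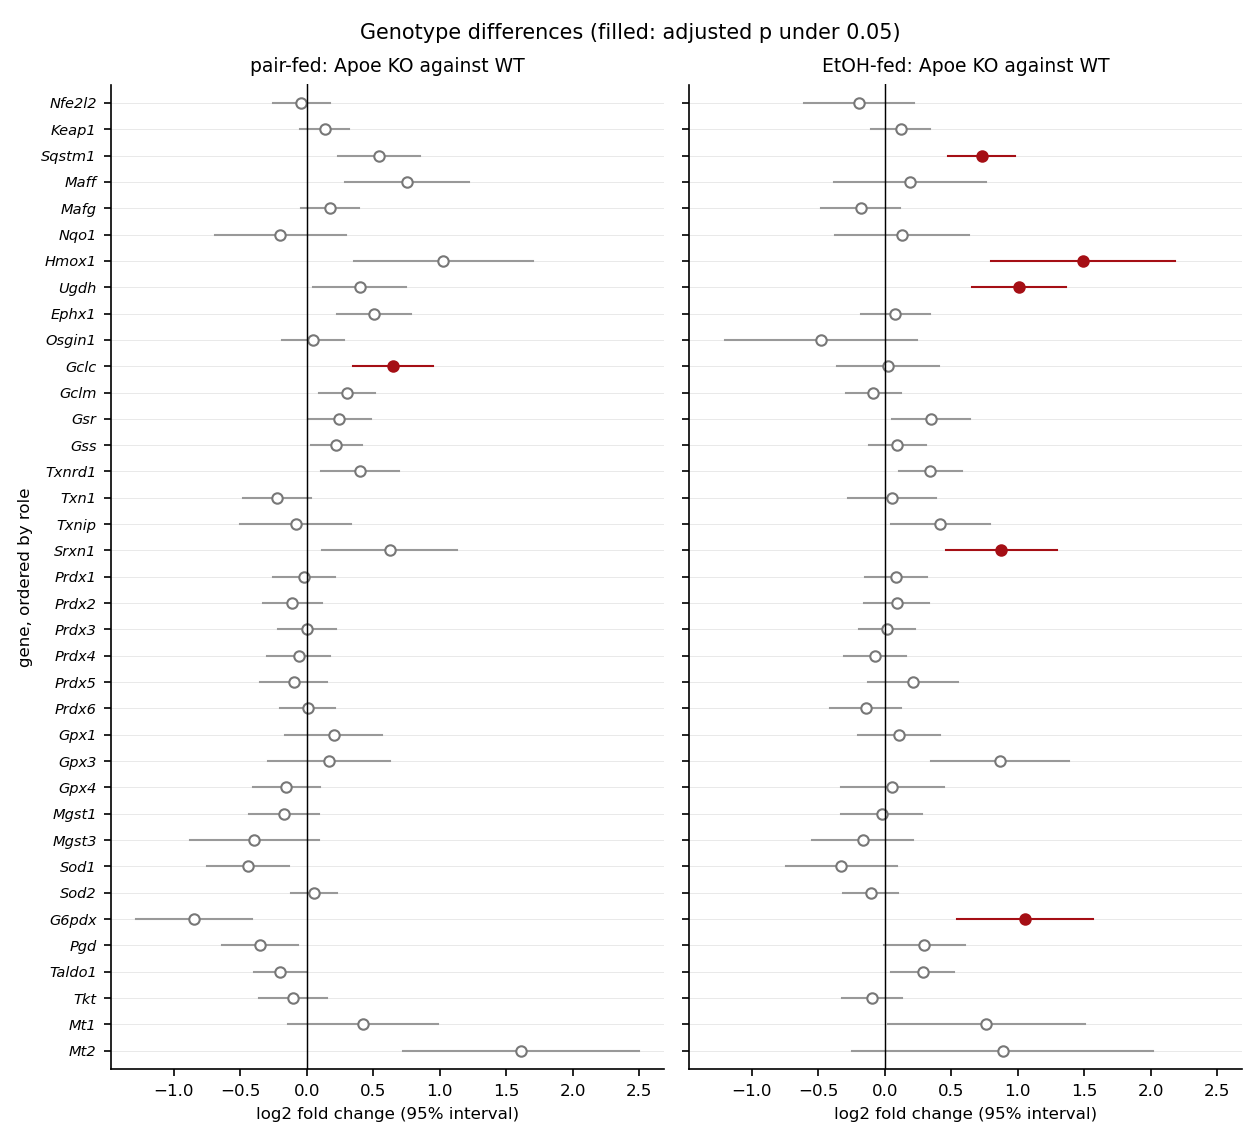
Log2 fold change of *Apoe* KO against WT in pair-fed (left) and EtOH-fed livers (right) for 37 genes, with the 95% interval as a line, and filled symbols at an adjusted p under 0.05. *Gclc* is the filled gene on the left, and *Hmox1*, *G6pdx*, *Ugdh*, *Srxn1* and *Sqstm1* are filled on the right.

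Among the regulators, the transcripts of NRF2 and of its inhibitor did not pass the test in any comparison. *Nfe2l2* (chr2:75675513-75704641) had 2795, 3001, 2591 and 3560 in pair-fed WT and 2550, 4335, 4302, 3305 and 4028 in EtOH-fed WT livers. In *Apoe* KO livers it had 2791, 3011, 2751, 3134 and 2754 when pair-fed and 2616, 2478, 4556 and 3422 when EtOH-fed. The EtOH-fed mice spread more widely than the pair-fed ones in both genotypes, and all groups overlapped. The diet difference was 0.29 in WT livers (SE 0.157, adjusted p = 0.247) and 0.14 in *Apoe* KO livers (95% interval -0.18 to 0.46). *Keap1* (chr9:21229730-21239361), the adaptor of the ubiquitin ligase that removes NRF2, had 1452, 1476, 1449 and 1335 in pair-fed WT and 1477, 1555, 1767, 1503 and 1652 in EtOH-fed WT livers. Its values were 1676, 1513, 1525, 1668 and 1457 in pair-fed and 1876, 1544, 1814 and 1680 in EtOH-fed *Apoe* KO livers. The EtOH-fed WT mice all lay above the pair-fed WT mice, by a narrow margin (0.15, 95% interval -0.05 to 0.36).

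*Sqstm1* (chr11:50199366-50210827) encodes p62, an autophagy receptor that binds KEAP1 and is itself an NRF2 target. Its values were 8182, 9498, 10005 and 7795 in pair-fed WT and 29604, 29733, 32184, 29028 and 29946 in EtOH-fed WT livers. The EtOH-fed WT mice lay within a narrow band, far above the pair-fed WT mice. The *Apoe* KO livers had 16277, 11154, 12819, 15364 and 9850 when pair-fed and 53031, 58784, 45823 and 43053 when EtOH-fed. All 4 EtOH-fed *Apoe* KO mice were thus above all other mice. *Sqstm1* rose with EtOH by 1.77 in WT (SE 0.106, adjusted p = 1.71e-06) and by 1.95 in *Apoe* KO livers (SE 0.150, adjusted p = 4.45e-06). It was higher in *Apoe* KO than in WT livers by 0.73 after EtOH (SE 0.118, adjusted p = 0.00471), and by 0.54 in pair-fed livers, which did not pass (adjusted p = 0.0671). The interaction was not called for it (0.18). Of its exon bases, 17.3% are shared with the opposite-strand gene *Mrnip*, and whether counting used the strand is not stated.

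The small MAF proteins are the DNA-binding partners of NRF2. *Mafg* fell in *Apoe* KO livers by 0.45 (adjusted p = 0.00813), from 4199 ± 454 (SD, n = 5) to 3077 ± 307 (n = 4), without overlap of the groups. *Maff* fell there by 0.74 (adjusted p = 0.0340), from 409 ± 125 to 243 ± 57.9, with overlapping ranges of 268 to 603 and 158 to 289. The *Maff* call was lost without pair-fed *Apoe* KO mouse 1, 3 or 4 or EtOH-fed *Apoe* KO mouse 4 or 5. In WT livers the corresponding differences were -0.09 and -0.17. Neither difference between genotypes in the response was called (interaction adjusted p = 0.312 and 0.472). The related *Mafk*, which is not among the 37 genes, rose with EtOH by 0.68 in WT and 0.98 in *Apoe* KO livers.

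Of the 5 NRF2 target enzymes outside the thiol systems, 3 rose with EtOH in WT and 4 in *Apoe* KO livers, where 12.7% and 23.2% of all genes changed. *Hmox1* (chr8:75093621-75100589), heme oxygenase 1, which opens the heme ring and is known to be abundant in macrophages, had 467, 858, 564 and 743 in pair-fed WT and 2189, 2803, 6142, 2523 and 5436 in EtOH-fed WT livers. Pair-fed and EtOH-fed *Apoe* KO livers had 1718, 661, 1234, 2709 and 990, and 8874, 16897, 6260 and 9812, respectively. Every EtOH-fed *Apoe* KO mouse lay above every other mouse, the closest pair being 6260 and 6142. *Hmox1* rose with EtOH by 2.44 in WT (SE 0.291, adjusted p = 0.000209) and by 2.91 in *Apoe* KO livers (SE 0.345, adjusted p = 0.000103). After EtOH it was higher in *Apoe* KO than in WT livers by 1.49 (SE 0.320, adjusted p = 0.0194), a call that was lost without EtOH-fed WT mouse 1 or EtOH-fed *Apoe* KO mouse 2 or 5. The pair-fed difference of 1.02 did not pass (adjusted p = 0.105), and the interaction was 0.46 (adjusted p = 0.702).

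Markers of macrophages also differed between the EtOH-fed genotypes, where 4.69% of all genes changed. All 5 Kupffer cell markers listed (*Clec4f*, *Timd4*, *Vsig4*, *Cd5l*, *Marco*) were higher in the *Apoe* KO than in the WT livers after EtOH (median log2 fold change 1.20), and their summed values were 10705 to 20653 against 4297 to 8212. Of 7 macrophage and monocyte markers, 5 were higher (*Cd68*, *Adgre1*, *Lyz2*, *Trem2*, *Gpnmb*), with sums of 5186 to 8446 against 1890 to 3223. Within each EtOH-fed group the mouse with the highest *Hmox1* did not have the highest sums. EtOH-fed *Apoe* KO mouse 2 had the highest *Hmox1* (16897) and the lowest sums of its group in both lists (10705 and 5186). EtOH-fed WT mouse 3 had the highest *Hmox1* of its group (6142) and the lowest macrophage sum (1890). Among pair-fed *Apoe* KO mice, mouse 2 had the lowest *Hmox1* (661) and the lowest sums (7337 and 2845). Mouse 4 of that group had the highest *Hmox1* (2709) and the highest macrophage sum (5223). Pair-fed WT mouse 1 had the lowest *Hmox1* of its group (467) and the lowest sums (7070 and 2869), while the highest values lay in different mice. *Col1a1* and *Col3a1*, of 7 stellate cell and fibroblast markers, were also higher in *Apoe* KO than in WT livers after EtOH, with sums of 17929 to 32173 against 10279 to 16928. With EtOH in WT livers, *Clec4f* and *Cd5l*, of the 5 Kupffer cell markers, were lower and *Hmox1* was higher. The part of these cell types in the *Hmox1*, *Sqstm1*, *Srxn1*, *Ugdh* and *G6pdx* differences was not tested. Of the hepatocyte markers, 0 of 6 changed between the EtOH-fed groups by limma (1 at an unadjusted p under 0.05), with sums of 2161130 to 3659940 in WT and 2211880 to 3164050 in *Apoe* KO livers. Of 10 neutrophil markers 3 were in the table (*S100a8*, *S100a9*, *Csf3r*), 0 of them changed by limma (0 at an unadjusted p under 0.05), and they summed to 145 to 214 in WT and 154 to 377 in *Apoe* KO livers. *Krt19*, 1 of 4 cholangiocyte markers, was higher (2.05), with sums of 326 to 798 in WT and 687 to 2128 in *Apoe* KO livers.

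**Figure D3:**
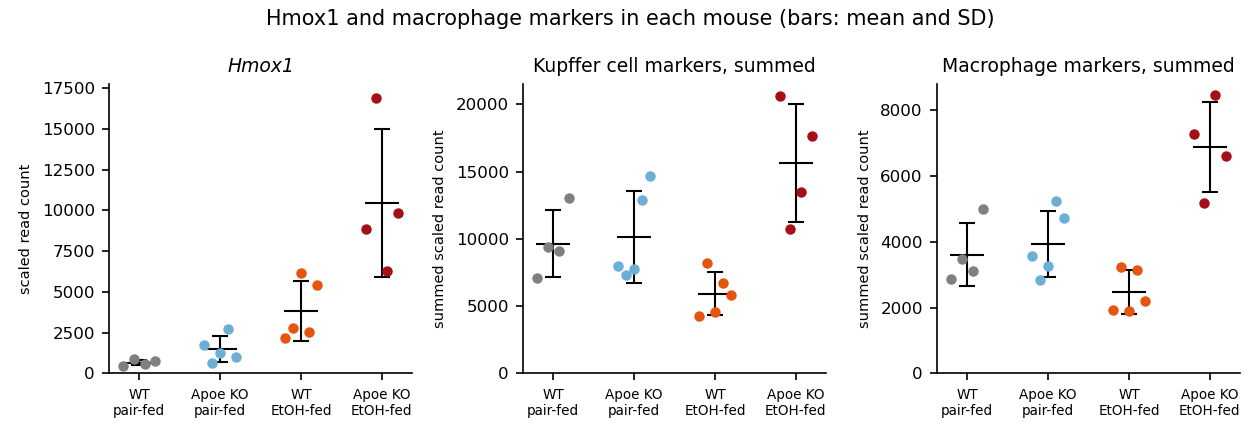
*Hmox1* (left), the sum of 5 Kupffer cell markers (middle) and the sum of 7 macrophage and monocyte markers (right) as scaled read counts, with 1 point per mouse and the mean and SD as bars. EtOH-fed *Apoe* KO mice have the highest mean in each panel, and the EtOH-fed WT mice are all above the pair-fed WT mice in *Hmox1* but not in the marker sums.

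*Ugdh* (chr5:65413221-65435949) encodes UDP-glucose dehydrogenase, which makes the UDP-glucuronate used for glucuronidation. Its values were 3285, 3201, 3866 and 2273 in pair-fed WT and 5456, 3899, 6571, 3886 and 6087 in EtOH-fed WT livers. Its *Apoe* KO values were 4986, 3393, 3960, 5135 and 3320 when pair-fed and 10272, 12064, 9780 and 8820 when EtOH-fed. The EtOH-fed *Apoe* KO mice again stood above all others. *Ugdh* rose with EtOH by 0.71 in WT (SE 0.185, adjusted p = 0.0245) and by 1.31 in *Apoe* KO livers (SE 0.142, adjusted p = 5.93e-05), and after EtOH the genotypes differed by 1.01 (SE 0.165, adjusted p = 0.00482). The interaction of 0.61 was not called (adjusted p = 0.216). The WT call was lost without pair-fed WT mouse 2 or 4 or EtOH-fed WT mouse 1 or 3.

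*Ephx1* (chr1:180976210-181020904) is microsomal epoxide hydrolase. It had 9335, 8576, 9919 and 6880 in pair-fed WT and 19271, 17999, 24074, 19912 and 21777 in EtOH-fed WT livers. The corresponding *Apoe* KO values were 14635, 11879, 10166, 13730 and 11094 when pair-fed and 23089, 18597, 24608 and 20855 when EtOH-fed. The EtOH-fed genotypes overlapped, and all pair-fed *Apoe* KO mice were above all pair-fed WT mice. The rise with EtOH was 1.25 in WT (SE 0.128, adjusted p = 6.82e-05) and 0.83 in *Apoe* KO livers (SE 0.122, adjusted p = 0.000439), and the pair-fed genotype difference of 0.50 did not pass (adjusted p = 0.0622). *Nqo1* (chr8:107388225-107403206), the quinone reductase often read as an NRF2 reporter, had 421, 496, 372 and 239 in pair-fed WT and 399, 433, 982, 522 and 646 in EtOH-fed WT livers. Its *Apoe* KO values were 421, 286, 353, 385 and 209 when pair-fed and 567, 563, 553 and 823 when EtOH-fed. The diet groups overlapped in WT and were separate in *Apoe* KO livers. *Nqo1* rose in *Apoe* KO livers by 0.94 (SE 0.201, adjusted p = 0.00474). The WT difference was 0.61 (adjusted p = 0.141), and the difference between genotypes in the response was not called (interaction 0.33). *Osgin1*, an oxidative stress-induced growth inhibitor, did not pass in any comparison, and its EtOH-fed values ran from 3403 to 8203 in WT and from 2292 to 7074 in *Apoe* KO livers.

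**Figure D4:**
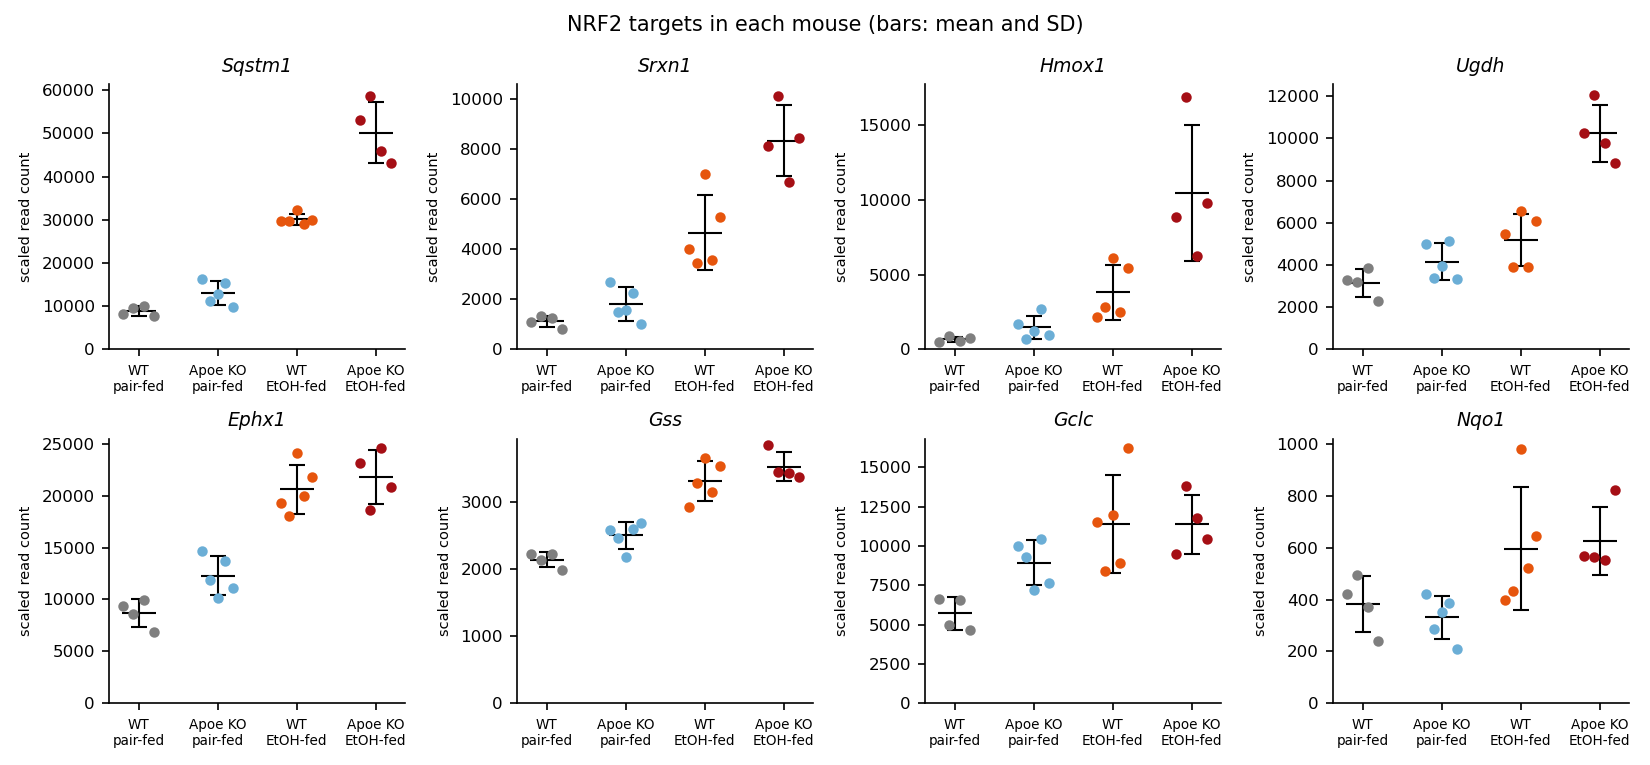
Scaled read counts of 8 genes in the 4 groups, with 1 point per mouse and the mean and SD as bars. In *Sqstm1*, *Hmox1* and *Ugdh* the 4 EtOH-fed *Apoe* KO mice lie above all other mice, whereas in *Ephx1*, *Gss*, *Gclc* and *Nqo1* the EtOH-fed genotypes overlap.

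Glutathione is built in 2 steps, by the glutamate-cysteine ligase (catalytic subunit *Gclc*, modifier subunit *Gclm*) and by glutathione synthetase (*Gss*). *Gclc* (chr9:77754535-77794485) had 6655, 4985, 6574 and 4646 in pair-fed WT and 11529, 8390, 11979, 8907 and 16261 in EtOH-fed WT livers. In *Apoe* KO livers it had 10036, 9300, 7237, 10447 and 7647 when pair-fed and 9512, 13816, 11815 and 10431 when EtOH-fed. The pair-fed WT mice were below all other mice, and the other groups overlapped. *Gclc* rose with EtOH by 0.97 in WT livers (SE 0.183, adjusted p = 0.00441). In *Apoe* KO livers the diet difference was 0.35 (adjusted p = 0.0742), and the pair-fed *Apoe* KO livers were already 0.65 above pair-fed WT livers (SE 0.140, adjusted p = 0.0330). That genotype call was lost without pair-fed WT mouse 2 or 4 or pair-fed *Apoe* KO mouse 1 or 4, and when all 4 groups entered the fit. The smaller response in *Apoe* KO livers was not called as a difference (interaction -0.62, adjusted p = 0.188).

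*Gclm* (chr3:122245557-122270732) had 7710, 6284, 7278 and 6415 in pair-fed WT and 8187, 6458, 7376, 7234 and 7636 in EtOH-fed WT livers, a difference of 0.09 with overlapping groups. The *Apoe* KO mice had 8663, 9046, 7506, 8016 and 9324 when pair-fed and 6446, 6960, 7160 and 7179 when EtOH-fed. It fell there by 0.29 (SE 0.088, adjusted p = 0.0288), without overlap, a call that was lost without pair-fed *Apoe* KO mouse 1, 2 or 5 or EtOH-fed *Apoe* KO mouse 1 or 2. *Gss* (chr2:155563181-155592810) had 2224, 2133, 2218 and 1979 in pair-fed WT and 2921, 3283, 3648, 3144 and 3533 in EtOH-fed WT livers. Its *Apoe* KO values were 2586, 2459, 2170, 2598 and 2680 when pair-fed and 3847, 3447, 3431 and 3368 when EtOH-fed. The diet groups were separate in both genotypes. *Gss* rose by 0.63 in WT (SE 0.097, adjusted p = 0.00142) and by 0.50 in *Apoe* KO livers (SE 0.089, adjusted p = 0.00161), and after EtOH the genotypes differed by 0.09 (95% interval -0.12 to 0.31). Of its exon bases, 15.4% are shared with the opposite-strand genes *Acss2*, *Gssos1* and *Gssos2*. *Gsr*, glutathione reductase, which recycles oxidized glutathione, rose in *Apoe* KO livers by 0.45 (adjusted p = 0.00324), from 2068 ± 202 to 2821 ± 92.7. In WT livers the difference was 0.35 (adjusted p = 0.141).

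In the thioredoxin system, *Srxn1* (chr2:152105516-152111376) moved farthest. It encodes sulfiredoxin, which repairs overoxidized peroxiredoxins. Its window with 3 antioxidant response cores, those at -158 and -45 being of the form added later, is shown above. *Srxn1* values were 1095, 1321, 1264 and 817 in pair-fed WT and 4019, 3451, 7031, 3563 and 5296 in EtOH-fed WT livers. For *Apoe* KO livers they were 2696, 1489, 1578, 2261 and 999 when pair-fed and 8145, 10126, 6673 and 8444 when EtOH-fed. The diet groups were separate in both genotypes, while after EtOH the genotypes overlapped through the WT mouse at 7031. *Srxn1* rose by 2.02 in WT (SE 0.205, adjusted p = 6.34e-05) and by 2.28 in *Apoe* KO livers (SE 0.229, adjusted p = 3.39e-05). After EtOH it was higher in *Apoe* KO livers by 0.88 (SE 0.194, adjusted p = 0.0223), a call that was lost with median-of-ratios size factors (0.75, adjusted p = 0.0570) and without EtOH-fed WT mouse 1 or EtOH-fed *Apoe* KO mouse 2 or 5. *Txnrd1*, cytosolic thioredoxin reductase, rose by 0.51 in WT (adjusted p = 0.0321) and by 0.45 in *Apoe* KO livers (adjusted p = 0.00697), from 3965 ± 777 to 5569 ± 607 and from 5160 ± 592 to 7053 ± 704. Its WT call was lost without pair-fed WT mouse 2 or 4 or EtOH-fed WT mouse 1, 3 or 5, and its *Apoe* KO call with size factors. *Txn1*, thioredoxin, and *Txnip*, its inhibitor, did not pass in any comparison, with WT diet differences of -0.38 and -0.42.

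Peroxiredoxins, glutathione peroxidases and superoxide dismutases remove peroxides and superoxide. Of the 6 peroxiredoxins, 0 changed with EtOH in WT livers by limma (2 at an unadjusted p under 0.05, and 12.7% of all genes changed). In *Apoe* KO livers 1 changed (23.2% of all genes). This was *Prdx6*, a peroxiredoxin with phospholipase activity, which fell by 0.50 (adjusted p = 0.00308), from 19531 ± 1682 to 13776 ± 1458, while in WT livers the groups were also separate but the difference did not pass (-0.35, adjusted p = 0.0701). Over the 6 genes the log2 fold changes ran from -0.35 to -0.04 in WT and from -0.50 to 0.21 in *Apoe* KO livers. Of the 5 glutathione peroxidases and microsomal transferases, *Gpx3*, the secreted peroxidase, rose in *Apoe* KO livers by 0.98 (adjusted p = 0.00177), from 354 ± 75.2 to 700 ± 141. In WT livers *Gpx3* overlapped between diets (191 to 388 and 219 to 571). *Gpx4*, which reduces lipid peroxides, rose in *Apoe* KO livers by 0.36 (adjusted p = 0.0498), and this call was lost in 12 of 15 alternatives, among them the removal of any pair-fed *Apoe* KO mouse and of EtOH-fed *Apoe* KO mouse 1, 4 or 5. *Gpx1*, *Mgst1* and *Mgst3* did not pass in any comparison. The superoxide dismutases *Sod1* and *Sod2* did not pass either, with diet differences of -0.42 and -0.05 in WT and -0.31 and -0.22 in *Apoe* KO livers. With size factors, *Sod2* and *Prdx4* were lower after EtOH in *Apoe* KO livers (adjusted p = 0.0168 and 0.0448).

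The pentose phosphate pathway supplies NADPH, which glutathione and thioredoxin reductases use, and its first enzyme, glucose-6-phosphate dehydrogenase (*G6pdx*, chrX:74409483-74429194), behaved differently in the genotypes. *G6pdx* had 254, 207, 305 and 192 in pair-fed WT and 91, 112, 72, 143 and 120 in EtOH-fed WT livers. In *Apoe* KO livers it had 91, 133, 138, 143 and 159 when pair-fed and 216, 201, 303 and 173 when EtOH-fed. The pair-fed WT mice and the EtOH-fed *Apoe* KO mice were thus the high groups, between 173 and 305, and the other two groups lay between 72 and 159, with no mouse in between. *G6pdx* fell with EtOH by 1.16 in WT livers (SE 0.224, adjusted p = 0.00514) and rose by 0.74 in *Apoe* KO livers (SE 0.217, adjusted p = 0.0255). The difference between these responses was 1.90 (SE 0.315, adjusted p = 0.00478) and was called in all 23 alternatives run, at 1.74 to 2.01. After EtOH the genotypes differed by 1.05 (SE 0.237, adjusted p = 0.0242), a call lost without EtOH-fed WT mouse 1 or EtOH-fed *Apoe* KO mouse 4. The pair-fed difference of -0.85 did not pass (adjusted p = 0.0518). The rise in *Apoe* KO livers was lost without pair-fed *Apoe* KO mouse 1 or EtOH-fed *Apoe* KO mouse 4. *G6pdx* has the lowest level per kilobase of all members, and 13.6% of its exon bases are shared with the opposite-strand gene *Ikbkg*. Without EtOH-fed *Apoe* KO mouse 1, whose *Xist* and *Ddx3y* went against its label, the difference between responses was 1.90 (adjusted p = 0.00444).

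The other genes of the pathway moved in part with it. *Pgd*, the second NADPH-producing enzyme, rose in *Apoe* KO livers by 0.74 (adjusted p = 0.00268), from 1560 ± 289 to 2586 ± 369, and had 1967 ± 192 and 2115 ± 343 in pair-fed and EtOH-fed WT livers. Its interaction was 0.65 (adjusted p = 0.0980). *Taldo1*, transaldolase, had an interaction of 0.48 (adjusted p = 0.0623), with -0.35 in WT and 0.14 in *Apoe* KO livers. *Tkt*, transketolase, did not pass in any comparison.

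The metallothioneins bind zinc and copper and scavenge radicals. *Mt1* (chr8:94179082-94180327) had 9577, 24509, 10070 and 17387 in pair-fed WT and 36586, 16615, 32168, 12452 and 18306 in EtOH-fed WT livers. Among *Apoe* KO livers the values were 20148, 13213, 29226, 17764 and 18201 when pair-fed and 44284, 57588, 17714 and 38308 when EtOH-fed. Both diet comparisons overlapped. *Mt1* rose in *Apoe* KO livers by 0.93 (SE 0.286, adjusted p = 0.0314), a call that was lost in 9 of 15 alternatives, among them the removal of pair-fed *Apoe* KO mouse 1, 2, 4 or 5 or EtOH-fed *Apoe* KO mouse 1, 2 or 5. The WT difference of 0.59 did not pass (adjusted p = 0.272). *Mt2* (chr8:94172664-94173568) had 29, 91, 22 and 57 in pair-fed WT and 372, 71, 305, 62 and 116 in EtOH-fed WT livers. Its *Apoe* KO values were 254, 86, 112, 172 and 98 when pair-fed and 445, 332, 115 and 285 when EtOH-fed. EtOH-fed WT mice 1 and 3 were the highest of their group in both genes. In pair-fed WT mouse 1, where *Mt2* had 29, 1 read stood for an estimated 5.76 units, so that few reads lie behind this value. Differences for *Mt2* were large and did not pass, with 1.71 by diet in WT (SE 0.552, adjusted p = 0.0587) and 1.61 by genotype in pair-fed livers (SE 0.413, adjusted p = 0.0594). *Mt1* values were 79.3 to 458 times those of *Mt2* in the same mouse. Of the exon bases of *Mt2*, 73.5% are shared with the opposite-strand gene *Gm45774* in GENCODE vM21, and its level is therefore uncertain.

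**Figure D5:**
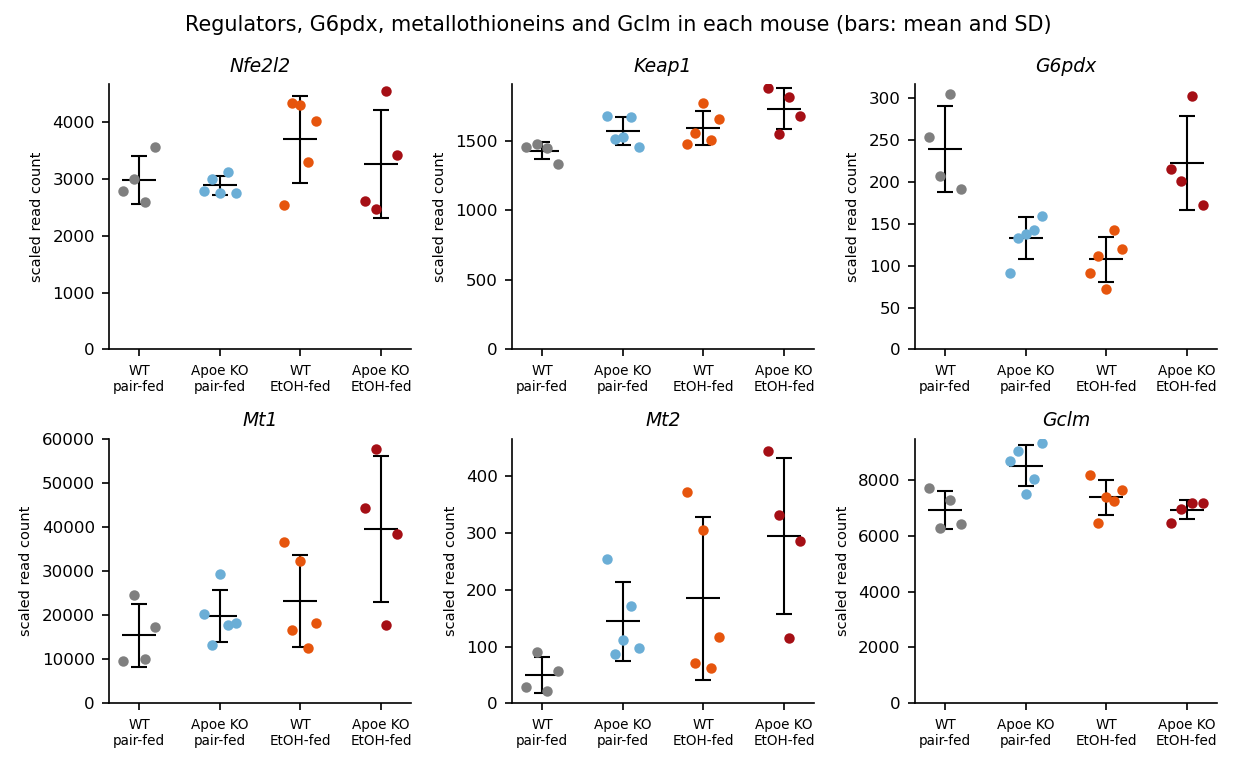
Scaled read counts of *Nfe2l2*, *Keap1*, *G6pdx*, *Mt1*, *Mt2* and *Gclm* in the 4 groups, with 1 point per mouse and the mean and SD as bars. *G6pdx* is high in WT mice when pair-fed and in *Apoe* KO mice when EtOH-fed (173 to 305) and low in the other two groups (72 to 159), while *Nfe2l2* overlaps among all groups.

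A further 109 genes of the same pathways, from lists made with earlier results of these data known, are given by count. Of these genes, with EtOH, 16 rose and 7 fell in WT livers (21.1%, against 12.7% of all genes), and 30 rose and 15 fell in *Apoe* KO livers (41.3%, against 23.2%) (median log2 fold changes of 0.01 and 0.17, against -0.01 and 0.13 over all genes). Between genotypes, 2 were higher and 3 lower in pair-fed *Apoe* KO livers (4.59%, against 1.73% of all genes). In EtOH-fed *Apoe* KO livers 3 of the 109 were higher (against 4.69% of all genes), namely *Mafk* (0.77), *Syvn1* (0.73), which encodes a ubiquitin ligase of the endoplasmic reticulum, and *Ucp2* (0.89), a mitochondrial carrier.

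Of 20 glutathione S-transferases, 3 rose and 2 fell in WT livers (25%, against 12.7% of all genes). In *Apoe* KO livers 9 rose and 2 fell (55%, against 23.2%). *Gstm3* (1.61 and 2.18), *Gstm4* (1.07 and 1.55) and *Gstp1* (1.36 and 1.07) rose in both. *Gsta1* (2.37), *Gsta2* (1.53), *Gstm1* (0.95), *Gstm2* (0.89), *Gstp2* (1.56) and *Gstt3* (1.12) rose in *Apoe* KO livers, whereas *Gsta3* fell by 0.55. *Gstm2* was the transferase with an interaction (1.13, adjusted p = 0.0498). These families hold near-identical copies that can share reads, so that single values are uncertain.

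Of 26 other NRF2 targets, 5 rose and 2 fell in WT livers (26.9%, against 12.7% of all genes). In *Apoe* KO livers 11 rose and 3 fell (53.8%, against 23.2%). *Abcc4*, a conjugate exporter, rose by 2.54 and 2.28, and *Htatip2* by 1.02 and 1.30. *Cbr3*, a carbonyl reductase, rose by 2.56 and *Akr1b8* by 1.28 in *Apoe* KO livers, as did the ferritin genes *Fth1* (0.51) and *Ftl1* (0.61). *Trib3*, a pseudokinase gene better known as a target of the stress factor ATF4, rose by 4.37 in WT and 3.21 in *Apoe* KO livers. *Ugt1a6a* fell by 0.70 and 0.82 and *Aldh3a2* by 0.43 and 0.49.

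Of 16 other glutathione turnover genes, 4 rose in WT livers (25%, against 12.7% of all genes), and 4 rose and 4 fell in *Apoe* KO livers (50%, against 23.2%). *Slc3a2*, the heavy chain of the cystine carrier whose light chain is *Slc7a11*, rose by 0.67 and 1.07. *Cth* (1.14) and *Cbs* (0.56), which make cysteine from homocysteine, rose in WT livers. Of 14 other peroxide and superoxide enzymes, 21.4% changed in WT and 28.6% in *Apoe* KO livers (12.7% and 23.2% of all genes). Among them, catalase (*Cat*) fell by 0.44 in WT and 0.60 in *Apoe* KO livers. Of 8 other NADPH sources, 25% changed in each genotype, against the same 12.7% and 23.2% of all genes. Here *Idh1* fell by 0.67 and 0.59, and *Idh2* rose by 0.46 in WT livers. The thioredoxin and glutaredoxin list had 10 genes, of which 2 rose (*Glrx*, *Txndc12*) and 1 fell (*Txndc5*) in *Apoe* KO livers (30%, against 23.2% of all genes). Of 15 further NRF2 regulators and partners, 13.3% changed in WT and 20% in *Apoe* KO livers, near the 12.7% and 23.2% of all genes. *Mafk* and *Syvn1* rose in both genotypes. *Bach2*, which encodes a repressor that competes with NRF2, fell in *Apoe* KO livers by 0.95 (adjusted p = 0.0231).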

How the data were processed

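Poly(A) RNA from the livers of 18 mice was sequenced, and each mouse was placed in its group by its label. The deposited values are a signal per gene, read counts that the authors scaled to a nearly common total per mouse and rounded. Per the labels, reads were handled with FastQC, Trimmomatic, HISAT2, SAMtools, featureCounts and DESeq2 on GRCm38, while versions, annotation, scaling step and strand setting are not given in the sources used here. The deposited table also holds the authors' own comparisons (log2 fold changes, p-values and a score), which were not used.

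The table had 15247 lines, of which 195 that repeated an Ensembl gene were dropped, leaving 15052 genes. Reads were estimated from the spacing of low values. Log2(value + 1) was fitted with limma 3.58.1 in R 4.3.3 (trend on the mean), using only the 2 groups compared, or all 18 mice for the interaction. Tables were handled in Python 3.11.15 with pandas 2.3.3 and numpy 2.4.6, and the fit was tested on simulated data. As alternatives, each mouse was left out in turn, the replicate number entered as a block, sample quality weights were estimated, the fit took all 4 groups, the pseudocount was 0.1, genes under 10 in any mouse were dropped, or size factors (median of ratios) were applied. Nothing beyond the labels says how mice were housed or batched. The p-values set each difference against the variation between these mice, which limma moderates over all genes.

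Members and lists were chosen with earlier results of these data known. Values per mouse are given for *Nfe2l2*, *Keap1*, *Nqo1*, *Hmox1*, *Gclc*, *Gclm*, *Mt1*, *Mt2* and up to 4 further members per comparison with the lowest adjusted p. Other members are given by mean ± SD, fold change or range. Genes outside the members are *Apoe*, *Xist*, *Ddx3y*, listed pathway genes that passed the test, and cell type markers. Exon overlaps are from GENCODE vM21 (GRCm38).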

Additional observations from a re-analysis of the deposited data

Results flagged for a closer look

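The response of *G6pdx* to EtOH differed between genotypes, with an interaction of 1.90 on the log2 scale (limma, adjusted p = 0.00478).

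Single mice stood apart from their group by Dixon's ratio (gap to the nearest mouse over the range of the group) in 11 of 148 groups tested, and chance flags about 1 in 20. EtOH-fed *Apoe* KO mouse 5 was high in *Nqo1* (823, nearest 567, ratio 0.937), mouse 1 in *Gsr* (2959, nearest 2788, ratio 0.859) and mouse 4 in *Prdx3* (4225, nearest 3762, ratio 0.882), and mouse 2 was low in *Mafg* (2621, nearest 3188, ratio 0.860). Pair-fed *Apoe* KO mouse 2 was low in 3 genes, *Txn1* (7638, nearest 10291, ratio 0.767), *Gpx1* (39766, nearest 61710, ratio 0.748) and *Gpx4* (5153, nearest 7045, ratio 0.818). Pair-fed WT mouse 4 was low in *Txnrd1* (2809, nearest 4227, ratio 0.874) and *Tkt* (3441, nearest 4632, ratio 0.847), and mouse 2 was high in *Mgst3* (1047, nearest 870, ratio 0.845). EtOH-fed WT mouse 4 was low in *Gpx1* (34658, nearest 45326, ratio 0.798).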

How the results depend on the processing

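No call of a member changed sign under the alternatives run. Size factors turned the median log2 fold change of the members from 0.09 to -0.03 between EtOH-fed genotypes and from 0.11 to -0.04 in the interaction. The counts of members that changed with EtOH stayed within 1.5 times in both genotypes, at 7 to 11 in WT and 14 to 18 in *Apoe* KO livers when 1 mouse was left out, and at 13 in WT livers with all 4 groups in the fit or sample quality weights. The pair-fed genotype count of 1 became 2 when genes under 10 in any mouse were dropped, 2 with all 4 groups in the fit (*Gclc* lost), 3 with sample quality weights and 0 to 4 when 1 mouse was left out (0 without pair-fed WT mouse 2 or 4 or pair-fed *Apoe* KO mouse 1 or 4, and 4 without pair-fed *Apoe* KO mouse 5). The EtOH-fed genotype count of 5 ran from 2 to 6 when 1 mouse was left out, and the interaction count of 1 became 2 with sample quality weights and ran from 1 to 2 when 1 mouse was left out. Under the replicate block, 9 members were called by diet in WT livers, 17 in *Apoe* KO livers, 3 between pair-fed and 9 between EtOH-fed genotypes, and 1 in the interaction, and the *Apoe* KO diet calls of *G6pdx* (0.76, adjusted p = 0.0519 by limma) and *Maff* (-0.59, adjusted p = 0.0757 by limma) were lost. Mice with the same number did not deviate together in every pair (correlations of -0.217 to 0.230 over the 4 comparisons), so the numbers were not taken to pair the mice. Between EtOH-fed genotypes the same-numbered pairs were closer, with a mean correlation of 0.135 against -0.033 for other pairs. There the block added *Gsr*, *Gpx3*, *Mt1* and *Mt2* to the members called. Whether the numbers mark a batch was not tested. The cause of these shifts was not tested. Deposited values carry no read totals, and the depth of 2 of the 18 mice could not be estimated.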
